A study of Homo sapiens with 12 samples.

Results

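Lenalidomide plus dexamethasone, called LenDex here, was compared with control treatment in 3 human multiple myeloma cell lines after 6 h. Multiple myeloma is a malignancy of antibody-secreting plasma cells. The comparison used 6 of the 12 arrays of the series, taken by their treatment label and paired by cell line. The LenDex group received lenalidomide at 5 µM and dexamethasone at 0.05 µM, and the control group received neither drug. Each group had 1 array from ARP1, 1 from JJN3 and 1 from RPMI-8226, so n = 3 throughout. The remaining 6 arrays, from the same lines, came from cells with CPI203, a BET bromodomain inhibitor, at 0.01 µM plus LenDex (Combo), and from cells with CPI203 at that dose without LenDex (CPI203). They gave the LenDex effect again, on a background of CPI203, from arrays that do not enter the LenDex minus control differences. All lines are established, each line and treatment had 1 array, and the labels name no vehicle for the controls. Lenalidomide and dexamethasone were given only together, so their effects cannot be told apart. Separate cultures are not stated. The line served as a block, and the spread behind each p-value was pooled over the lines and all 12 arrays.

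The pair of drugs reaches the genome by 2 known routes. Dexamethasone enters cells and binds the glucocorticoid receptor (NR3C1), which leaves its chaperones, moves to the nucleus, binds DNA at paired AGAACA-like elements and switches on a set of targets, while it restrains NF-kB and AP-1 at inflammatory genes. Lenalidomide binds cereblon (CRBN), the substrate receptor of a ubiquitin ligase, and redirects it to the lymphoid transcription factors Ikaros (IKZF1) and Aiolos (IKZF3), whose proteins are then degraded. In myeloma cells loss of these proteins is known to lower IRF4 and MYC. Transcript arrays do not measure that protein loss.

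Levels are deposited log2 probe set values, and a change is a LenDex minus control difference in log2 units with its standard error (SE) from limma. A gene was called at a Benjamini-Hochberg adjusted p under 0.05 over the 15156 genes tested, each represented by 1 probe set. Triplets of levels are given in the order ARP1, JJN3 and RPMI-8226. Array medians lay between 5.304 and 5.375, and the number of arrays limits the precision. Some arrays went against their labels or stood apart. MS4A1, the B cell antigen CD20, was at 11.48 to 12.06 on the JJN3 and RPMI-8226 arrays and at 4.59 to 5.34 on the ARP1 arrays, while SDC1, the plasma cell antigen CD138, was at 4.96 to 5.79 and at 11.78 to 12.26 there. Other plasma cell markers were present on the JJN3 and RPMI-8226 arrays. IRF4 was at 12.38 to 12.76 and XBP1 at 10.60 to 10.66 on their LenDex and control arrays. The median of 13 such markers was 7.026 to 9.445 on JJN3 and RPMI-8226 arrays, with 11 to 13 at log2 5 or more, and 11.35 to 11.62 on ARP1 arrays. Across genes the JJN3 and RPMI-8226 arrays correlated with r from 0.963 to 0.981, against 0.867 to 0.887 for ARP1 with either. Within a label r was 0.9795 to 0.9904 (JJN3) and 0.9758 to 0.9899 (RPMI-8226). The line names are therefore used as array labels, and these 2 may not be independent replicates. The 2 labels did differ in some genes. The summed linear level of 7 erythroid markers was 13590.9 to 14773.3 on JJN3 arrays, against 1184.3 to 2178.7 on RPMI-8226 arrays and 5179.4 to 5697.8 on ARP1 arrays. The JJN3 control array carried IGKC at 9.32 and IGHA1 at 9.84, against 5.11 to 5.55 and 5.52 to 6.24 on the other JJN3 arrays. The RPMI-8226 arrays with LenDex had a higher 3' minus 5' difference of actin control probe sets, at 0.448 (LenDex) and 0.391 (Combo), against 0.274 (control) and 0.226 (CPI203). The part of these features in the results was not tested, and results with and without the arrays concerned are given below.

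LenDex raised 37 genes (0.244% of those tested) and lowered 33 (0.218%), or 70 genes (0.462%) in all. All 70 moved the same way in the 3 lines. For 23 of the 37 higher genes the LenDex levels lay wholly above the control levels, a pattern that 2.88% of all genes showed, and for 19 of the 33 lower genes they lay wholly below, as for 3.71% of all genes. These patterns were read from the same arrays that gave the calls, so they are no further support for them. A change of at least 2-fold was reached by 18 of the higher and 3 of the lower genes. The median over all genes was -0.003. Of the 55 called genes with several tested probe sets, 8 had at least 1 of opposite sign, none of which was called. The calls rest on few arrays and on a spread that was estimated with the CPI203 and Combo arrays. With the 6 LenDex and control arrays alone none passed by limma, while 1957 had an unadjusted p under 0.05. Without the JJN3 control array 2 genes passed, CXCR4 (adjusted p = 0.0239) and FKBP5 (adjusted p = 0.0179), and the same 2 passed when each JJN3 array was averaged with its RPMI-8226 counterpart (adjusted p = 0.0155 and 0.0222). None passed by limma without JJN3, where 1343 had an unadjusted p under 0.05, while 2 passed without RPMI-8226 and 298 without ARP1. Over all 3 lines an unadjusted p under 0.05 was reached by 2079 genes.

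The 3 genes with the smallest adjusted p were known glucocorticoid receptor targets. TSC22D3 encodes GILZ, a leucine zipper protein that binds and restrains NF-kB and AP-1. Its level was 12.14, 12.71 and 12.57 with LenDex, against 7.59, 9.73 and 9.57 in control cells. Every LenDex array was above every control array, and the ARP1 control was the lowest of all. The change was 3.51 ± 0.34 (SE), or 11.4-fold (adjusted p = 0.00662), with all 3 of its tested probe sets called singly. Without the JJN3 control array it was 3.65 (adjusted p = 0.0531). FKBP5 encodes the co-chaperone FKBP51, which holds the receptor in a form with low hormone affinity and so closes a feedback loop. FKBP5 stood at 12.67, 12.69 and 12.33 with LenDex, against 10.70, 10.75 and 10.80 in control cells. Both groups were tight and far apart, and the change of 1.81 ± 0.13, or 3.51-fold, had the smallest adjusted p in the comparison (0.000891). Of the 6 FKBP5 probe sets 5 were called singly, with differences over the 6 from 0.124 to 2.555. CXCR4, the receptor for the marrow chemokine CXCL12 that holds plasma cells in the bone marrow, stood at 10.58, 11.66 and 11.92 with LenDex, against 8.17, 8.71 and 10.01 in control cells. The rise was 5.38-fold, at 2.43 ± 0.20 (adjusted p = 0.00259), with the lowest LenDex array above the highest control array. All 4 CXCR4 probe sets were called singly.

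**Figure D1:**
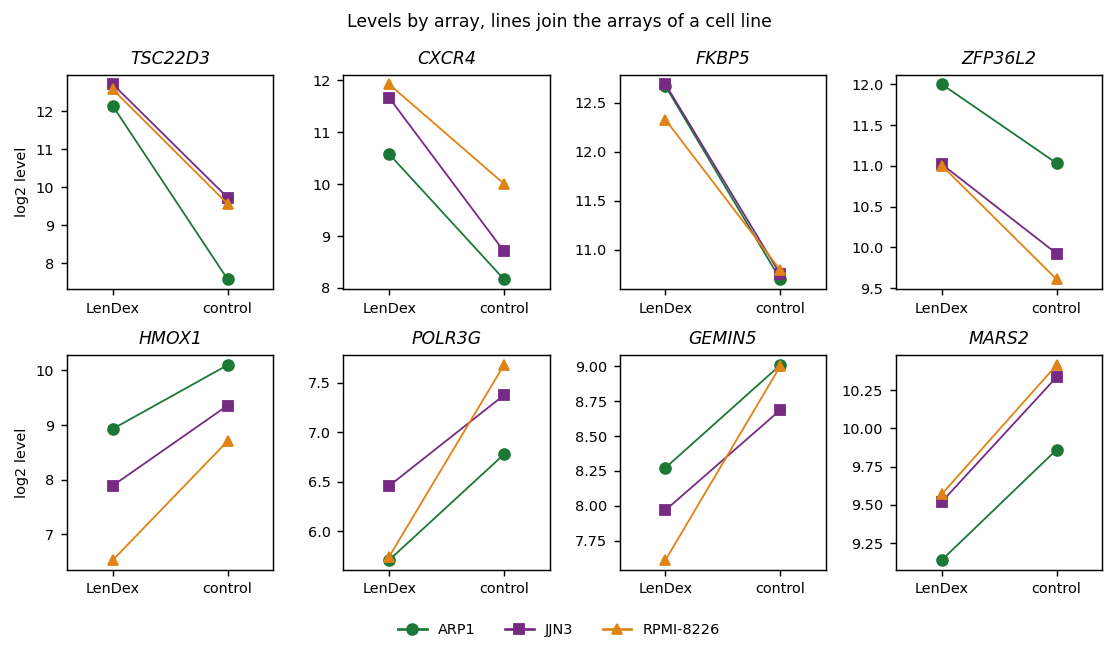
Log2 probe set level (y axis, a separate scale per gene) on each LenDex and control array for 4 genes that were higher with LenDex (top) and 4 that were lower (bottom). Each line joins the LenDex and control arrays of 1 cell line. FKBP5 lies between 12.33 and 12.69 with LenDex and between 10.70 and 10.80 in control cells, while HMOX1 and ZFP36L2 move the same way in each line although their groups overlap.

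Of the 40 genes listed as glucocorticoid-induced, 36 were tested. Here and below, lists and their members were chosen with earlier results of these data known. Their counts are therefore descriptions and no further support for the calls. TSC22D3, FKBP5 and CXCR4 were called higher and none lower, against 0.244% and 0.218% of all genes. The list's median change was 0.303, against -0.003 over all genes, and its range ran from -0.167 to 3.51. In all 3 lines 19 of the 36 were higher (52.78%), against 16.4% of all genes, and 1 was lower. LenDex and control levels did not overlap for 5 members, all higher, against 2.88% of all genes. PER1, a clock gene and early receptor target, was at 5.87, 8.10 and 6.59 with LenDex, against 5.64, 5.44 and 5.55 in control cells. No control array reached a LenDex array, but the sizes differed between lines and the change of 1.31 ± 0.46 did not pass (adjusted p = 0.241). Without the JJN3 control array it was 0.67, and 1 of 3 PER1 probe sets was at -0.112. TXNIP, which restrains glucose uptake and binds thioredoxin, stood at 12.36, 11.13 and 10.56 with LenDex, against 11.13, 10.56 and 9.57 in control cells, a difference of 0.93 ± 0.22 (adjusted p = 0.106). It was higher in each line, by 0.58 to 1.23. DDIT4, an inhibitor of mTORC1 chosen here after its values were seen, had a difference of 1.68 ± 0.34 (adjusted p = 0.0708).

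Several textbook glucocorticoid targets showed no rise common to the lines. DUSP1, a MAP kinase phosphatase, was near the array median, at 5.33, 5.35 and 5.04 with LenDex and 5.63, 5.43 and 5.16 in control cells. Its difference was -0.17 ± 0.27 (adjusted p = 0.852). SGK1, a kinase of sodium transport and cell survival, was higher by 0.70 and 0.69 in ARP1 and JJN3 and differed by -0.62 in RPMI-8226. In RPMI-8226 it was low, at 5.283 with LenDex and 5.905 in control cells. BCL2L11 encodes BIM, a death-promoting BCL2 family member that glucocorticoids are known to induce in lymphoid cells. It was at 8.64, 6.08 and 5.48 with LenDex, against 7.41, 6.13 and 5.70 in control cells, so the 1.23 difference in ARP1 had no counterpart in the other lines. NFKBIA, the NF-kB inhibitor IkBα, had the same shape, with differences of 0.98, -0.07 and 0.10. The mean differences were 0.26 ± 0.31 for SGK1, 0.32 ± 0.27 for BCL2L11 and 0.33 ± 0.27 for NFKBIA, with adjusted p from 0.665 to 0.789.

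The receptor's own transcript and those of its partners gave no call. NR3C1 was at 9.79, 10.42 and 10.61 with LenDex, against 9.76, 10.90 and 10.93 in control cells, a difference of -0.26 ± 0.11 (adjusted p = 0.350). Of 15 tested genes for the receptor and its chaperones and coactivators none was called, where 0.462% of all genes were, and the median was -0.142. In all 3 lines 9 were lower (60%), against 19.1% of all genes, and 1 was higher. The smallest p-values belonged to FKBP4, the co-chaperone FKBP52 that counters FKBP51, at -0.38 ± 0.12 (adjusted p = 0.177), and to NR3C2, the mineralocorticoid receptor, at -0.59 ± 0.22 (adjusted p = 0.269). Among 18 tested inflammatory genes known to be repressed by glucocorticoids none passed. Their median was -0.44, and the mean differences ran from -0.98 to -0.018, but 7 (38.89%) were lower in all 3 lines, against 19.1% of all genes. By line the median was -0.151 (ARP1), -0.372 (JJN3) and -0.669 (RPMI-8226), and LTA, a TNF family cytokine, differed by 0.51 in ARP1, by -1.18 in JJN3 and by -1.32 in RPMI-8226. In ARP1 LTA was near or below the array median, at 5.29 with LenDex and 4.78 in control cells. RELB, an NF-kB subunit, was at 5.92, 7.99 and 7.20 with LenDex, against 6.99, 8.63 and 8.18 in control cells. It was lower in each line by 0.64 to 1.07, with adjusted p = 0.0582 and overlapping groups. NFKB2, its usual partner, differed by -0.38 ± 0.11 (adjusted p = 0.160).

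Outside the list of glucocorticoid targets the largest rises among called genes were those of FAR2, CYSLTR1 and TSPYL2. FAR2, a fatty acyl-CoA reductase that makes fatty alcohols, stood at 8.83, 8.04 and 8.87 with LenDex, against 5.87, 6.24 and 7.16 in control cells, and the rise was 2.16 ± 0.33 (adjusted p = 0.0452). CYSLTR1, the receptor for cysteinyl leukotrienes, was at 6.50, 7.42 and 8.49 with LenDex, against 4.98, 5.08 and 6.19 in control cells. The ARP1 and JJN3 control levels are close to the array medians, and the rise of 2.06 ± 0.26 (adjusted p = 0.0214) was present in each line. Of the 2 CYSLTR1 probe sets 1 was called singly, and the lower difference was 0.94. TSPYL2, a nucleosome assembly family protein that restrains growth, was at 9.13, 9.52 and 8.86 with LenDex, against 7.59, 7.71 and 7.49 in control cells, a rise of 1.58 ± 0.21 (adjusted p = 0.0259). For all 3 genes the groups did not overlap.

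The next rises had adjusted p from 0.0243 to 0.0485. ARHGEF3, an exchange factor for RhoA, rose by 1.56 ± 0.24, and SPATA13, an exchange factor for Rac and Cdc42, by 1.17 ± 0.15. Their probe sets went down to 0.652 (ARHGEF3, 1 of 4 called singly) and 0.169 (SPATA13, 3 of 6 called singly). ZNF189, a zinc finger protein, rose by 1.41 ± 0.25, LRRC1, a polarity scaffold, by 1.41 ± 0.24, and PNPLA8, a calcium-independent phospholipase, by 1.32 ± 0.23. The other LRRC1 probe set was at 0.372, and neither was called singly. MEI1, a meiotic gene, rose by 1.23 ± 0.22 on the probe set used. One of its 11 tested probe sets had a difference below 0, at -0.071. CRYBG1 rose by 1.18 ± 0.19, the membrane protein gene MFSD6 by 1.18 ± 0.20, and FAIM, an inhibitor of Fas-induced apoptosis, by 1.17 ± 0.19. Of these 9 genes MEI1 and CRYBG1 had overlapping groups, and their ARP1 levels were far from those of the other lines. The remaining 22 higher genes rose by 0.52 to 1.15. The upper value is that of ZFP36L2, an mRNA decay factor for AU-rich transcripts chosen here because it also passed on the CPI203 background.

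**Figure D2:**
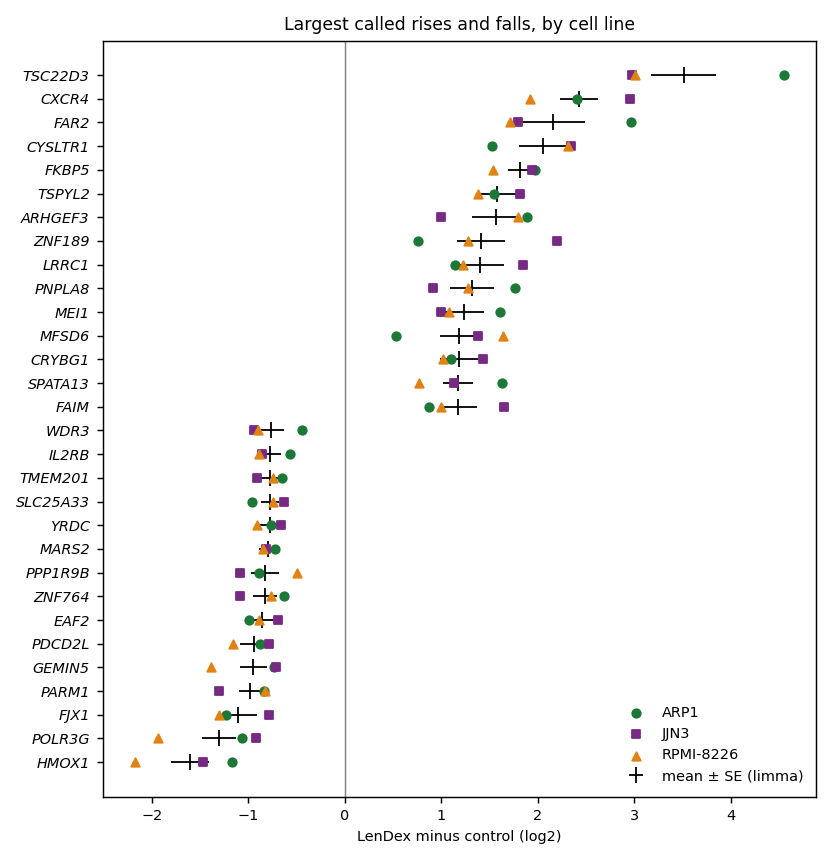
LenDex minus control difference in log2 units (x axis) for the 15 largest called rises (top) and 15 largest called falls (bottom). Symbols show each cell line and the black bar shows the limma mean with its SE. Every symbol of a gene lies on the same side of 0, and TSC22D3 at 3.51 and HMOX1 at -1.60 are the extremes.

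Promoter sequence was set beside these calls, since the receptor binds DNA. The windows were those of RefSeq (GRCh38.p14), from 250 bases before to 50 after each annotated start. The hexamer AGAACA, searched on both strands, was in at least 1 window of 8 of the 33 called-higher genes with a window (24.24%) and 4 of the 28 called-lower genes (14.29%), against 14.07% of the 12199 tested genes with a window. Per window the shares were 12.9%, 11.43% and 10.87%, and called-higher genes had more windows each, 62 for 33 genes. The paired element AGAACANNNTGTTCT was in 0 of 17578 windows, which decides nothing, because an exact match of this length is rare in short windows. The E-box CACGTG, the hexamer that MYC and MAX bind, was in 4 of 33 (12.12%), 4 of 28 (14.29%) and 11.72%. These shares are descriptions without a test. Of the called-higher genes with AGAACA, the 3 with the largest changes are printed below, and MARS2, which fell, is printed for its E-box. Sequences run 5′ to 3′ on the gene's strand, with the hexamer in capitals, at chr6:35728534-35728833 (minus strand) for FKBP5, chrX:78327562-78327861 (minus) for CYSLTR1, chr12:29223416-29223715 (plus) for FAR2 and chr2:197705119-197705418 (plus) for MARS2.
FKBP5: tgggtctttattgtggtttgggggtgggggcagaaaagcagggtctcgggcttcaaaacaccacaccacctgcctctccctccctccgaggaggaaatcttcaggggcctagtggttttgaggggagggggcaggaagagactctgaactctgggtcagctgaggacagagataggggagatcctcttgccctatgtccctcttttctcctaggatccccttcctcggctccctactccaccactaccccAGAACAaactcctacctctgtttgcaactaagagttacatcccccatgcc
CYSLTR1: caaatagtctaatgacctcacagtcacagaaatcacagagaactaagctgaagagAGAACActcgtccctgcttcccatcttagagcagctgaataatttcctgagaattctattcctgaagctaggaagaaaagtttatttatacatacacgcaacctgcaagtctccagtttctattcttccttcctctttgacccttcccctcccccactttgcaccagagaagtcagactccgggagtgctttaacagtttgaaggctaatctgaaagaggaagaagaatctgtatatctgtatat
FAR2: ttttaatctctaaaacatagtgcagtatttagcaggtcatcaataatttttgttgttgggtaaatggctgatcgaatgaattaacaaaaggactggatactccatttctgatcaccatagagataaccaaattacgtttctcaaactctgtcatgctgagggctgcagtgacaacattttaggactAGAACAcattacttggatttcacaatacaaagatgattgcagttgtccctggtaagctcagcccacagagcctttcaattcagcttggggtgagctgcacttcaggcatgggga
MARS2: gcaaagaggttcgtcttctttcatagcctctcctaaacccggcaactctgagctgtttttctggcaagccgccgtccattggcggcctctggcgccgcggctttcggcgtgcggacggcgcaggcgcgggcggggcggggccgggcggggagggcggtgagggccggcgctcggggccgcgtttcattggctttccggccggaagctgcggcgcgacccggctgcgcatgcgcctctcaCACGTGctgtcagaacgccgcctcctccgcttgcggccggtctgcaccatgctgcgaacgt
In FKBP5 the hexamer falls at the annotated start itself, in FAR2 at position -64 from it and in CYSLTR1 at position -195, and the MARS2 E-box lies at position -11. TSC22D3 and CXCR4, the largest rises, are not among the genes whose windows held AGAACA. A match is not a binding site, and the windows leave out sites further from the start, so a missing match decides nothing either.

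The largest falls among called genes were those of HMOX1 and POLR3G. HMOX1, heme oxygenase, which breaks down heme and is a target of NRF2, was at 8.93, 7.89 and 6.53 with LenDex, against 10.10, 9.36 and 8.71 in control cells. It was lower in every line, with a mean difference of -1.60 ± 0.20 (adjusted p = 0.0214), and the groups overlapped, with control levels that differed between lines. All 3 HMOX1 probe sets were called singly. POLR3G, an alternative subunit of RNA polymerase III that is used in dividing and undifferentiated cells, was at 5.71, 6.46 and 5.74 with LenDex, against 6.78, 7.37 and 7.68 in control cells. The change was -1.31 ± 0.18 (adjusted p = 0.0283) with no overlap. GEMIN5, which binds small nuclear RNAs for the SMN complex, was at 8.27, 7.97 and 7.61 with LenDex, against 9.01, 8.69 and 9.001 in control cells, a change of -0.95 ± 0.14 (adjusted p = 0.0386). MARS2, the mitochondrial methionyl-tRNA synthetase, was at 9.14, 9.52 and 9.57 with LenDex, against 9.86, 10.34 and 10.41 in control cells, and changed by -0.79 ± 0.10 (adjusted p = 0.0214). Its 3 line differences were nearly equal, at -0.72, -0.82 and -0.85.

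Further falls, with adjusted p from 0.0214 to 0.0485, were FJX1 at -1.11 ± 0.19, the mucin-like PARM1 at -0.99 ± 0.11, PDCD2L at -0.94 ± 0.15, the zinc finger gene ZNF764 at -0.83 ± 0.13 and PPP1R9B, the actin-binding phosphatase regulator spinophilin, at -0.82 ± 0.14. YRDC, which helps make a modified adenosine of tRNA, changed by -0.78 ± 0.11, and SLC25A33, a mitochondrial pyrimidine nucleotide carrier, by -0.78 ± 0.09. TMEM201, a protein of the inner nuclear membrane, changed by -0.77 ± 0.12, with 1 of 3 probe sets at 0.048, and WDR3, a component of the small ribosomal subunit processome, by -0.76 ± 0.13. The second probe set was at -0.218 for WDR3 and at -0.155 for PPP1R9B, and none of theirs was called singly. EAF2, a partner of the elongation factor ELL, stood at 9.97, 8.51 and 8.45 with LenDex, against 10.97, 9.21 and 9.34 in control cells, and changed by -0.86 ± 0.13 (adjusted p = 0.0431). IL2RB, the signalling chain shared by the interleukin-2 and interleukin-15 receptors, stood at 8.99, 9.60 and 9.04 with LenDex, against 9.55, 10.46 and 9.93 in control cells, and changed by -0.77 ± 0.11 (adjusted p = 0.0344). The other 18 lower genes changed by -0.749 to -0.532.

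MYC target and ribosome biogenesis genes were lower across the list. Of 50 tested members of 52, 4 were called lower and none higher, against 0.218% and 0.244% of all genes. Members were chosen with earlier results of these data known, so these counts are descriptions. WDR12, which matures the large subunit with PES1 and BOP1, was at 9.71, 9.17 and 9.08 with LenDex, against 10.09, 10.004 and 9.995 in control cells, and changed by -0.71 ± 0.12. Of its 3 probe sets 1 was at 0.047, and none was called singly. POLR1B, the second-largest subunit of RNA polymerase I, was at 9.32, 9.27 and 9.42 with LenDex, against 9.91, 10.01 and 10.08 in control cells, and changed by -0.67 ± 0.11. LYAR, a nucleolar protein of ribosomal RNA processing, changed by -0.65 ± 0.11, and PPAN, a large-subunit assembly factor, by -0.75 ± 0.13. Each of the 4 had adjusted p = 0.0485 and groups that did not overlap. The list's median was -0.346, against -0.003 over all genes, and by line it was -0.216 (ARP1), -0.285 (JJN3) and -0.473 (RPMI-8226). In all 3 lines 45 of 50 members were lower (90%), against 19.1% of all genes, and 21 had non-overlapping groups, against 3.71%. Members ranged from -0.94 to 0.215. The RPMI-8226 LenDex array, which gave the lowest median, is the one with the raised actin 3' minus 5' difference, whose part was not tested.

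MYC itself was at 11.98, 11.63 and 11.38 with LenDex, against 12.35, 11.97 and 11.79 in control cells. It was lower in each line, by 0.35 to 0.40, and the mean difference of -0.38 ± 0.15 did not pass (adjusted p = 0.287). Among the called genes outside the list, UTP3, WDR74, RRP15, GTPBP4, MAK16 and RIOK1 also act in ribosome assembly. They were picked after their values were seen, and changed by -0.73, -0.72, -0.70, -0.69, -0.68 and -0.56, each with adjusted p of 0.0485 or less. None of these 10 ribosome genes passed without the JJN3 control array, with adjusted p from 0.137 to 0.193 and differences from -0.805 to -0.543.

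**Figure D3:**
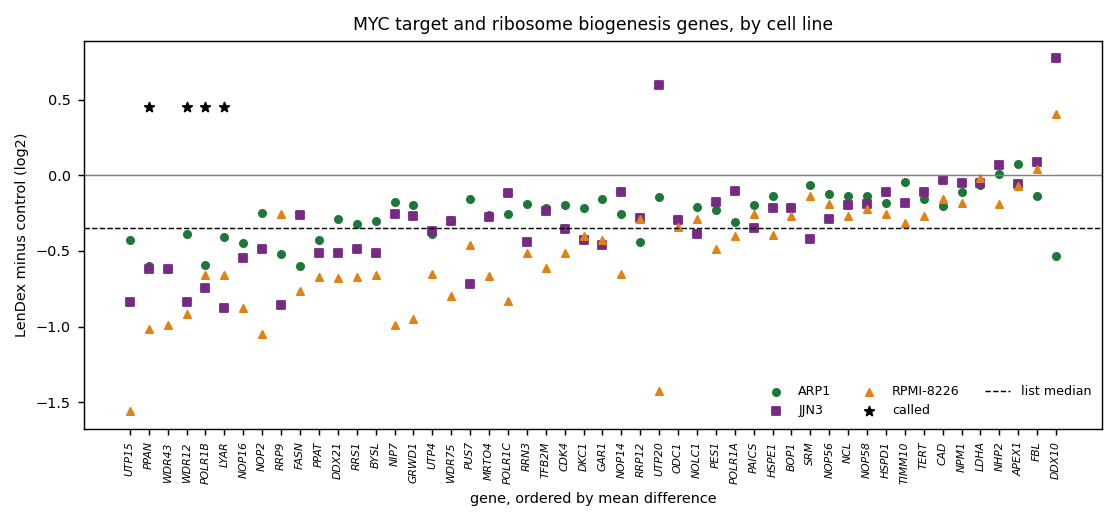
LenDex minus control difference in log2 units (y axis) for the 50 tested MYC target and ribosome biogenesis genes, ordered by their mean difference (x axis). Symbols show the cell lines, stars mark the 4 called genes and the dashed line is the list median of -0.346. Most symbols lie below 0, with the RPMI-8226 symbols lowest for many genes.

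Other lists of RNA and protein production held 1 call each, beside 0.218% of all genes called lower and 19.1% lower in all 3 lines. These lists too were chosen with earlier results of these data known, so a call within them is no further support. POLR3G was the only called gene of 23 in the RNA polymerase III list, whose median was -0.261 and of which 12 were lower in all 3 lines. GEMIN5 was the only one of 20 in the snRNP assembly list, which had a median of -0.225 and 15 members lower in all lines. MARS2 was the only one of 35 aminoacyl-tRNA synthetase genes, with a median of -0.066 and 12 lower against 7 higher in all lines. EDEM1, which directs misfolded glycoproteins to degradation, was the only called gene of 23 in the unfolded protein and integrated stress response list. It was at 9.71, 10.09 and 9.64 with LenDex, against 10.22, 10.64 and 10.17 in control cells, and changed by -0.53 ± 0.09 (adjusted p = 0.0485), while 2 of its 5 probe sets did not share the direction. The median of that list was -0.073. Cholesterol synthesis genes had no call among 18 and a median of -0.247. MSMO1, a sterol demethylation enzyme, had a difference of -0.47 ± 0.11 (adjusted p = 0.114), and CYP51A1, the lanosterol demethylase, of -0.48 ± 0.12 (adjusted p = 0.119). No cholesterol gene was higher in all 3 lines, and 9 were lower (50%).

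The lenalidomide pathway gave no call among the transcripts of the ligase, Ikaros and Aiolos at 6 h. CRBN was at 7.06, 7.51 and 7.44 with LenDex, against 6.91, 7.08 and 7.35 in control cells. IKZF1 was at 9.89, 9.13 and 10.03 with LenDex, against 9.94, 9.80 and 10.25 in control cells, with a difference of -0.32 ± 0.26 (adjusted p = 0.673) that was -0.055 without the JJN3 control array. IKZF3 differed by -0.12 ± 0.20 (adjusted p = 0.851) and CRBN by 0.22 ± 0.21 (adjusted p = 0.712), and without the JJN3 control array these were -0.01 and 0.07. IRF4, the master transcription factor of plasma cells, was at 11.83, 12.38 and 12.76 with LenDex, against 12.26, 12.50 and 12.57 in control cells, a difference of -0.12 ± 0.17 (adjusted p = 0.825). IRF4 and IKZF3 each had 2 tested probe sets, and the other was at -0.519 for IRF4 and -0.43 for IKZF3. None of these was called singly. Of 18 tested genes for the cereblon ligase and its neosubstrates none was called. With 0.462% of all genes called, a list of this size would hold few calls. ZFP91, a zinc finger neosubstrate, had a difference of -0.41 ± 0.12 (adjusted p = 0.154), and UBE2G1, the ubiquitin-conjugating enzyme that works with the ligase, of -0.38 ± 0.11 (adjusted p = 0.158). EAF2 was the 1 called gene of 24 in the plasma cell and Ikaros-IRF4 list, against 0.218% of all genes called lower. The list's median was -0.14. In all lines 10 were lower (41.67%) and 3 higher (12.5%), against 19.1% and 16.4% of all genes. Of 30 interferon-stimulated genes, a group known to respond to loss of Ikaros, none was called. Their median was -0.103, with TRIM22 at 0.71 ± 0.20 (adjusted p = 0.148) and IFI44 at -0.60 ± 0.14 (adjusted p = 0.108).

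Surface antigens on the myeloma list were not called in either direction. At 0.462% of all genes called, lists of this size would hold few calls. SLAMF7, the target of elotuzumab, was at 9.06, 7.80 and 7.03 with LenDex, against 9.57, 9.99 and 8.41 in control cells. The difference was -1.36 ± 0.31, lower in each line by 0.52 to 2.19 (adjusted p = 0.102), and all 5 probe sets had differences below 0. TNFRSF17, the antigen BCMA, was at 11.55, 8.74 and 9.83 with LenDex, against 11.62, 6.98 and 8.84 in control cells. Its level was thus above that of control in JJN3 and RPMI-8226 alone. CD38 and SDC1 differed by 0.02 ± 0.14 and -0.39 ± 0.15. None of 24 antigen and costimulatory genes was called, and their median was -0.114. The MHC class II genes had a median of -0.036 and none called of 15, with HLA-DQB1 at 0.32 ± 0.10 and HLA-DPB1 at -0.24 ± 0.16. Among 22 migration receptors CXCR4 and CYSLTR1 were called higher, against 0.244% of all genes, while the list's median was -0.048. The lowest difference in that list, -1.825, was not called. In all 3 lines 6 members were lower (27.27%) and 5 higher (22.73%), against 19.1% and 16.4% of all genes. Of 23 cytokine receptor genes IL2RB alone was called, against 0.218% of all genes called lower, and the list had a median of 0.15. IL6R, the interleukin-6 receptor of the main myeloma growth factor, was higher by 1.49 in ARP1 and differed by -0.50 and -0.15 in JJN3 and RPMI-8226.

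Growth and death genes gave 1 call, TSPYL2, beside 0.244% of all genes called higher. It was among 22 genes for CDK inhibitors and growth restraint. Their median was 0.202, and 8 were higher in all 3 lines (36.36%, against 16.4% of all genes). CDKN1A, the CDK inhibitor p21, was at 8.09, 10.90 and 10.93 with LenDex, against 7.18, 10.59 and 10.22 in control cells, a difference of 0.64 ± 0.54 (adjusted p = 0.677). Of 17 BCL2 family genes none was called and the median was 0.011. BBC3 encodes PUMA, a death-promoting protein, and was at 6.36, 9.26 and 9.08 with LenDex, against 5.74, 8.52 and 7.997 in control cells, higher in each line (adjusted p = 0.0582). BCL2L2 differed by 0.49 ± 0.13 (adjusted p = 0.127), BCL2 by -0.32 ± 0.15 (adjusted p = 0.383) and MCL1 by 0.11 ± 0.14 (adjusted p = 0.797). The p53 target list had no call among 19 and a median of 0.153, with TP53INP1 at 0.76 ± 0.14 (adjusted p = 0.0514). Of these 19, 8 were higher in all 3 lines (42.11%, against 16.4% of all genes) and 3 were lower. The G1/S list had no call among 27 (median 0.057), with CCND3, cyclin D3, at 1.07 ± 0.25 (adjusted p = 0.106) and CDC25A at -0.38 ± 0.13. The G2/M list had none among 23 (median -0.119), with AURKA at -0.43 ± 0.12 and KIF23 at -0.36 ± 0.11. Of these 23, 13 were lower in all 3 lines (56.52%, against 19.1% of all genes) and 2 were higher.

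In the metabolic and stress lists HMOX1 was the only call among 21 heme and NRF2 genes, against 0.218% of all genes called lower. The list's median was -0.127. Of these 21, 11 were lower in all 3 lines (52.38%, against 19.1% of all genes) and 2 were higher. Glucose and amino acid uptake genes had none among 23 (median -0.037). HK2, hexokinase, had a difference of -0.82 ± 0.17 (adjusted p = 0.0763), and SLC38A2, an amino acid carrier, was at 11.35, 11.48 and 11.55 with LenDex, against 10.40, 11.07 and 11.07 in control cells, without overlap (adjusted p = 0.0908). The metallothionein list had none among 9 (median 0.136), with MT2A at 0.46 ± 0.18 and MT1B at 0.15 ± 0.11. Clock genes had none among 16 (median -0.03), with BHLHE40 at -0.82 ± 0.20 and PER2 at -0.51 ± 0.16, although 1 of 5 PER2 probe sets shared that direction. Immediate early genes had none among 26 (median 0.002), with IER3 at -0.45 ± 0.13. Steroid and drug metabolising enzymes had none among 16 and a median of 0.145. In all lines 6 were higher (37.5%, against 16.4% of all genes) and none lower. TIPARP, a target of the aryl hydrocarbon receptor, had a difference of 2.36 ± 0.60 (adjusted p = 0.123). The JJN3 control array was at 7.41, the lowest of the JJN3 arrays by at least 2.04, and without it the difference was 1.76. The RPMI-8226 control array was low as well, at 7.015, against 8.969 to 10.531 on the other RPMI-8226 arrays.

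Addition of LenDex to CPI203 gave the same direction as LenDex alone for all 70 genes. The Combo against CPI203 comparison shares cell lines but no array with LenDex against control, and both take their spread from the same fit. It called 7 genes (0.0462% of those tested), 4 higher (0.0264%) and 3 lower (0.0198%), and 1658 had an unadjusted p under 0.05. Of the 70 genes, 6 were called there too, namely TSC22D3, CXCR4, FKBP5, ZFP36L2, MARS2 and YRDC. TSC22D3 was at 12.09, 13.22 and 13.11 with Combo, against 7.53, 9.98 and 9.96 with CPI203, a change of 3.65 ± 0.34. FKBP5 was at 12.78, 12.77 and 12.32 with Combo, against 10.73, 10.66 and 10.70 with CPI203, a change of 1.92 ± 0.13. CXCR4 changed by 2.62 ± 0.20, ZFP36L2 by 1.44 ± 0.14, MARS2 by -0.78 ± 0.10 and YRDC by -0.86 ± 0.11. The adjusted p ran from 0.000511 for FKBP5 to 0.0414 for MARS2. The seventh gene was ZNHIT6, a box C/D snoRNP assembly factor, at -0.724 ± 0.096 with adjusted p = 0.0472 on CPI203 and -0.456 (adjusted p = 0.0803) without it. Without the JJN3 control array this comparison called 4 genes, although it does not use that array directly.

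In each line, 36 of the 37 higher and 33 of the 33 lower genes kept their direction on CPI203, where 18.9% of all genes were higher and 16.9% lower in all 3 lines. The MYC target and ribosome biogenesis list had a median of -0.292 there, with 39 of 50 lower in all 3 lines. The glucocorticoid-induced list had a median of 0.33, with 18 of 36 higher in all lines. Across all 15156 genes the effects on the 2 backgrounds correlated with r = 0.645, in which genes are not independent. No gene was called for a difference between backgrounds, by limma, while 471 had an unadjusted p under 0.05. The smallest p belonged to ZNF101, whose LenDex effect was 0.38 ± 0.10 without CPI203 and -0.47 ± 0.10 with it. HIVEP3 had the opposite signs, at -0.52 ± 0.12 without and 0.36 ± 0.12 with CPI203, and SEMA6A, VWCE, TEDC1 and PDCL had differences between backgrounds of 0.723, 0.747, 0.599 and -0.52. The CYSLTR1 effect was 2.06 ± 0.26 without CPI203 and 0.96 ± 0.26 with it, and the POLR3G effect was -1.31 ± 0.18 and -0.63 ± 0.18. For each of these genes the adjusted p for the difference was 0.9997.

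**Figure D4:**
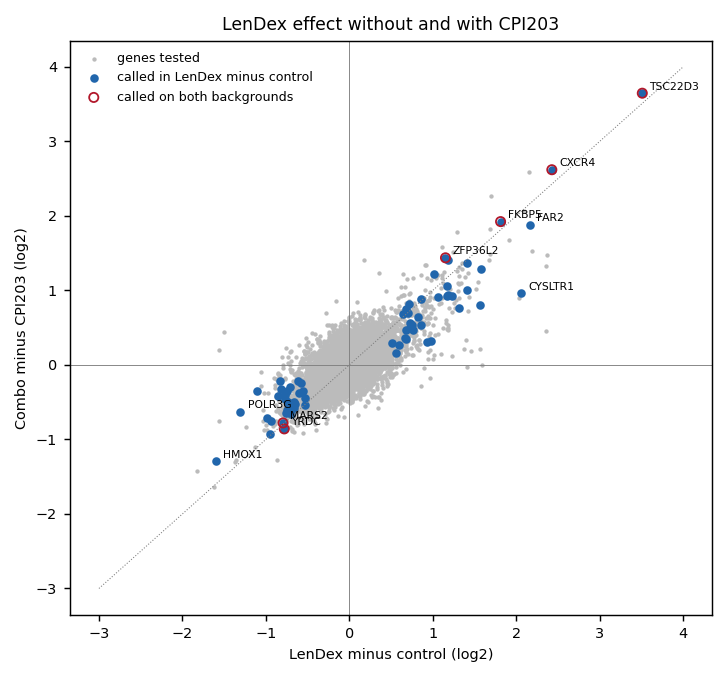
LenDex effect on a CPI203 background (Combo minus CPI203, log2 units, y axis) against LenDex minus control (log2 units, x axis) for 15156 genes. Blue points are the 70 genes called in LenDex against control, red rings the 6 also called on CPI203, and the dotted line marks equal effects. All blue points lie in the quadrants of equal sign.

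The size of the response differed between lines for 56 genes (0.369% of those tested) in a moderated F test over the 12 arrays. This test has 3 residual degrees of freedom, and it called none without the JJN3 control array. The 6 smallest p-values split into 2 patterns. CD160, a lymphocyte surface receptor, was at 9.80, 5.001 and 4.99 with LenDex, against 6.11, 5.01 and 5.04 in control cells, so the groups differed in ARP1 alone. ZBTB16, the zinc finger factor PLZF and a known glucocorticoid target, was at 8.35, 5.25 and 5.05 with LenDex, against 5.21, 4.74 and 4.79 in control cells. SNX30, a sorting nexin, had the same pattern at 8.98, 5.08 and 5.16 with LenDex, against 6.51, 4.87 and 4.99 in control cells. KLF9, another receptor target, differed by 2.41, 0.91 and -0.53 in the 3 lines. In RPMI-8226 it was near the array median, at 4.91 with LenDex and 5.44 in control cells. CD160, ZBTB16 and SNX30 were near or below the array median in JJN3 and RPMI-8226 in both groups.

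AKR1C1, AKR1C2 and UGT2B15 had the reverse pattern. They were the 3 genes that passed for a line difference among the 16 steroid and drug metabolising enzymes tested (18.8%, against 0.369% of all genes). The share was also raised in the glucocorticoid-induced list (5 of 36, 13.9%) and the cereblon list (2 of 18, 11.1%), which share ZBTB16. It was 9.09% in the growth restraint list and 7.69% in the immediate early list, while most other lists held no such gene. The lists were chosen with earlier results of these data known, so these shares are descriptions. AKR1C2, a hydroxysteroid dehydrogenase, was at 5.36, 9.53 and 10.43 with LenDex, against 5.07, 7.29 and 7.23 in control cells. It was near the array median in ARP1, and with CPI203 present it was higher by 1.94 in JJN3 and 3.04 in RPMI-8226. AKR1C1 was at 5.16, 8.72 and 10.60 with LenDex, against 5.34, 7.05 and 7.02 in control cells. Both genes are near-identical in sequence, so their probe sets may read each other's transcripts. UGT2B15, which conjugates steroids for excretion, was at 6.03, 9.64 and 9.55 with LenDex, against 5.11, 6.47 and 7.35 in control cells. TBC1D9 differed by -0.12, 1.92 and 1.54. PHLDA1, an immediate early gene, was at 4.84, 9.36 and 9.13 with LenDex, against 5.13, 10.71 and 10.87 in control cells, lower in JJN3 and RPMI-8226 from high levels and little different in ARP1, where it was near the array median. TSC22D3 was the 1 gene of the 70 that also differed between lines, with differences of 4.55, 2.98 and 3.01. Its LenDex levels were alike and its control level was lower in ARP1. B cell markers had medians of 7.24 to 9.43 on JJN3 and RPMI-8226 arrays and 5.12 to 5.37 on ARP1 arrays, so these patterns move with the lineage markers of the arrays, whose part was not tested.

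**Figure D5:**
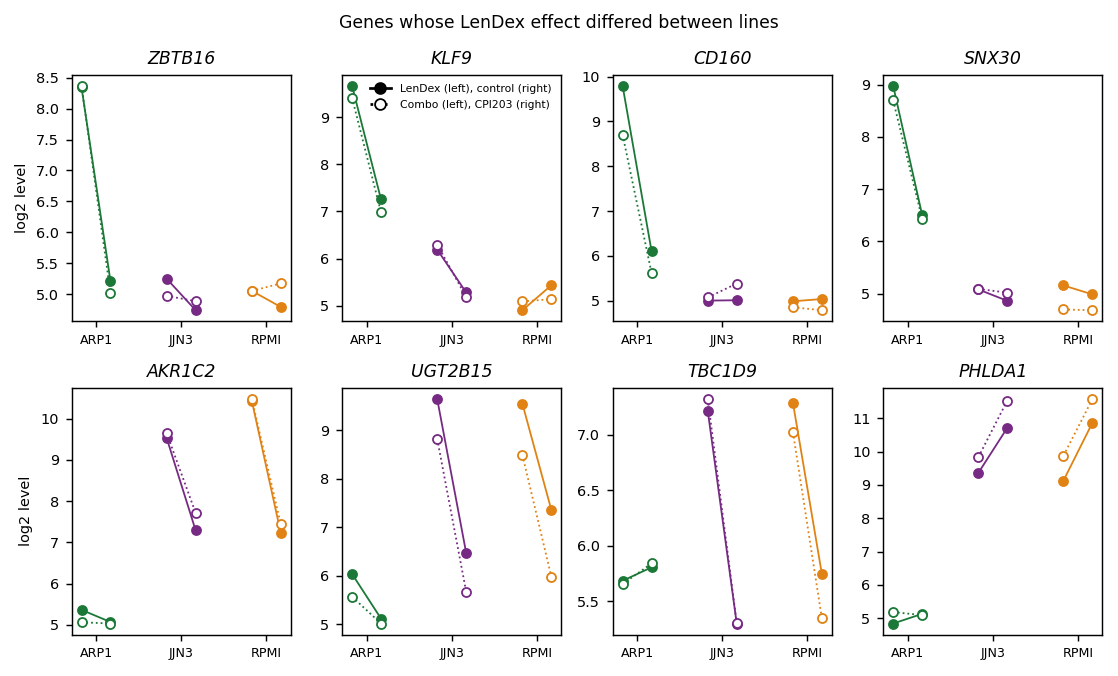
Log2 level (y axis, a separate scale per gene) of 8 genes whose LenDex effect differed between lines. In each line the left symbol is LenDex (filled) or Combo (open) and the right symbol is control (filled) or CPI203 (open). CD160, ZBTB16 and SNX30 differ most in ARP1, and AKR1C2, UGT2B15 and TBC1D9 differ most in JJN3 and RPMI-8226, on both backgrounds.

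At 0.462% of all genes called, lists of this size would hold few calls, and none was found among the tested markers of B cells (10), T and NK cells (10), monocytes and macrophages (7), erythroid cells (6), fibroblasts (7) and epithelium (7). The JJN3 and RPMI-8226 arrays carry B cell markers under either treatment. The JJN3 arrays also had the highest summed erythroid marker level, at 14773.3 with LenDex and 14021.9 in control cells. The list medians lay between -0.127 and 0.081. Among 13 plasma cell markers none was called, with a median of -0.122.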

How the data were processed

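Per the submitters' processing notes, the authors deposited log2 probe set levels that RMA computed in Affymetrix Expression Console 1.1. Whether the 12 arrays were normalised together is not given in the sources used here. RMA sets arrays processed together to a common distribution, which hides a shift of all transcripts. The array carries 49386 probe sets, 93 of them controls. A single symbol was annotated for 45253, several for 1327 and none for 2713. Symbols were updated through RefSeq gene identifiers, found for 45172. A gene was read from its brightest single-symbol probe set, by the mean of all 12 arrays, which gave 18209 genes. A filter that required log2 5 or more on 3 or more arrays left 15156 for testing.

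Groups came from the treatment label. limma 3.58.1 (R 4.3.3) fitted cell line and group over all 12 arrays (6 residual degrees of freedom) with moderated two-sided tests, and p-values were adjusted by Benjamini-Hochberg across the whole table. The line was a block because same-named arrays come from the same line. Deviations from the group means correlated within a line at 0.905 to 0.938 (ARP1), 0.82 to 0.884 (JJN3) and 0.832 to 0.888 (RPMI-8226). Line differences came from a moderated F test of line by LenDex terms, with the drugs taken to add on the log2 scale (3 residual degrees of freedom). The fit was tested on simulated data. Genes are named as one of the 15 largest called rises or 15 largest called falls with the same sign in all lines, as part of a panel of 24 genes, as one of up to 6 called members of a pathway list (27 lists) or its 2 smallest p-values where none was called, or as one of the 6 smallest p-values for the line or background difference. Members and lists were chosen with earlier results of these data known. List counts and medians were set beside those of all genes, without a set test. Alternatives were other level filters, all probe sets tested singly or averaged, a variance trend with robust estimation, cyclic loess, no block, the 6 arrays alone, each line left out, JJN3 averaged with RPMI-8226, and the JJN3 control array left out.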

Additional observations from a re-analysis of the deposited data

Results flagged for a closer look

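The LenDex effect differed between lines for 10 named genes, by the moderated F test of the line by LenDex terms in limma. Adjusted p was 0.0121 each for ZBTB16, CD160, SNX30, AKR1C1, AKR1C2 and TBC1D9. It was 0.0135 for KLF9, 0.0152 for UGT2B15, 0.0307 for TSC22D3 and 0.0456 for PHLDA1. In the order ARP1, JJN3 and RPMI-8226, CD160 differed by 3.69, -0.01 and -0.05, and ZBTB16 by 3.14, 0.51 and 0.26. AKR1C1 differed by -0.18, 1.68 and 3.58, and TBC1D9 by -0.12, 1.92 and 1.54. With 3 residual degrees of freedom and the JJN3 control array in the fit 56 genes passed, and without that array none did.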

How the results depend on the processing

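Counts of called genes moved with most settings. For LenDex against control, against 70 (37 higher, 33 lower), the counts were 70 without a level filter and 137 (55 higher, 82 lower) at a mean level of 6 or more. With probe sets tested singly 76 of 35458 passed, a count of probe sets and not of genes. Gene counts were 108 (31 and 77) with probe sets averaged and 287 (103 and 184) with a variance trend and robust estimation. They were 49 (36 and 13) after cyclic loess, which moved the median of all genes to 0.018. They were 2 (2 and 0) with JJN3 and RPMI-8226 averaged, 2 (2 and 0) without the JJN3 control array, 0 (0 and 0) by limma with the 6 arrays alone, where 1957 genes had an unadjusted p under 0.05, and 0 to 298 (0 to 187 higher, 0 to 111 lower) with a line left out. Without the replicate block of cell line 1 gene passed (1 higher, 0 lower), FKBP5. Of the 70 genes, 70, 67, 41, 67 and 45 kept their call without a filter, at a mean level of 6, with averaged probe sets, with the trend and after loess. With probe sets tested singly, 37 of the 70 genes had at least 1 probe set called.

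For LenDex on a CPI203 background, against 7 genes (4 higher, 3 lower), 36 probe sets (28 and 8) passed when tested singly. Gene counts were 12 (9 and 3) at a mean level of 6, 14 (8 and 6) with averaged probe sets, 86 (31 and 55) with the trend and 6 (5 and 1) after loess. They were 2 (2 and 0) with lines averaged, 4 (4 and 0) without the JJN3 control array, 0 (0 and 0) with 6 arrays and 1 (1 and 0) without the replicate block. With a line left out they were 0 to 103 (0 to 79 higher, 0 to 24 lower). No gene was called by limma for a background difference under any alternative run, where 132 to 1035 features had an unadjusted p under 0.05. The line difference called 112 probe sets when these were tested singly. It called 88 genes with averaged probe sets, 471 with the trend and 0 without the JJN3 control array, where 1478 genes had an unadjusted p under 0.05. That test was not run without a line, without the block or with lines averaged.

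No called gene changed sign in the alternatives with 1 value per gene. With probe sets tested singly 8 called genes had at least 1 probe set of opposite sign (CIT, EDEM1, HIP1, MEI1, SLCO2B1, TMEM201, WDR12 and ZNF614), from -0.255 for HIP1 to 0.048 for TMEM201. Among uncalled genes, SGK1 and CD38 changed sign without the JJN3 control array (-0.12 and -0.164), PER2 and HLA-DPB1 with averaged probe sets (0.024 and 0.004), and 5 genes with a line left out. Over the lines left out BCL2L11 ran from -0.139 (ARP1) to 0.589, IRF4 from -0.275 to 0.03 (ARP1), IL6R from -0.325 (ARP1) to 0.666, IKZF3 from -0.264 to 0.016 (JJN3) and CD38 from -0.16 (JJN3) to 0.167. Except where stated, the cause of these shifts was not tested. The number of arrays, 3 a group, limits which changes can pass.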
